A study of Rattus norvegicus with 14 samples.

Results

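At 171 of the 5019 genomic loci listed in comparisons of sperm of rats exposed to early-life stress, high fat diet or both, the libraries of the 2 groups compared fell, in at least 1 comparison, into an upper and a lower methylation level with an empty interval between them. A region was taken where its library values, put in order, left a gap of at least 12 percentage points between neighbouring libraries with at least 2 libraries on each side. This held for 277 of the 8555 regions listed in 5 deposited comparison tables (3.24%), and regions of different tables that overlapped by at least 1 bp were joined into 1 locus. These 2-level loci were thus chosen by the methylation values of the libraries, so their gaps and ranges are a description and carry no test.

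Reduced representation bisulfite sequencing, which reads CpG methylation at CpG-rich restriction fragments, was applied to sperm from 14 F0 Wistar males. The 3 control males had stayed with the dam and ate standard chow, and the 4 males of the high fat diet group (HFD) differed from them by diet from postnatal day 60. The 4 males of the early-life stress group (ELS) had been taken from their mother each day for 3 h, beginning on postnatal day 1 and lasting 16 days, and ate chow, and the 3 ELS-HFD males had both exposures. All took an elevated plus maze test on postnatal day 57, and the labels name no litters or shared animals, so p-values measure the spread between these samples, which may be technical. Libraries are numbered here by the order of their columns in the tables, which is not the numbering of the labels.

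CpG methylation in mature sperm is laid down before birth in the male germ line, where most of the genome becomes highly methylated while CpG islands at promoters and the control regions of maternally imprinted genes stay low. A sperm cell is haploid and each of its CpGs is methylated or not, so the percentage of a region is a mean over many cells and over the CpGs of the region. The tables give that mean without read counts, so depth is unknown, and how far a level differs by sampling alone cannot be stated. Of the genes that mark sperm, 28 listed regions at the maternally imprinted genes Gnas, Grb10, Igf2r and Zrsr1 had a median level of 3.26%, and the 3 regions at germ cell genes Dazl and Tuba3a had levels from 3.11 to 4.37%. A region at Zdbf2, an imprinted gene methylated on the paternal allele, had 96.8% and Dlk1, of another paternally imprinted cluster, 16.2%, while the blood and epithelial genes Ptprc, Cd79a, Epcam and Krt8 had no listed region. None of these regions was a 2-level region.

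Few of the loci lay at a gene start. The promoters of Bnip2 and Stradb are shown here because at each of these loci 1 library in each of 3 groups lay near 0. Bnip2 encodes a BCL2-interacting protein, and its 2-level region lay in exon 1 (chr8:76400369-76400561 on Rnor_6.0) with a start site 119 bp away in the deposited annotation. Stradb encodes a pseudokinase that binds the kinase LKB1, and its region (chr9:65763610-65763626) was annotated as promoter, 181 bp from a start site. The sequences come from RefSeq on the GRCr8 assembly, run from 250 bases before to 50 bases after the start on the sense strand, and were not aligned to the measured region of the older build, so they show the promoter and not the measured bases. Capitals mark each CG, the dinucleotide that is methylated.
Bnip2: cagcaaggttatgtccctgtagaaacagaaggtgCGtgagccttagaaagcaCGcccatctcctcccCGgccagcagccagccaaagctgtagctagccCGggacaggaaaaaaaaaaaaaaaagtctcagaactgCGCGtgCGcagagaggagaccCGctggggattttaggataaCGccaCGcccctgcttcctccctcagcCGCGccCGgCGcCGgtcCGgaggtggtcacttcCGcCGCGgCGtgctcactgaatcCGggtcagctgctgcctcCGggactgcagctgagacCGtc
Stradb: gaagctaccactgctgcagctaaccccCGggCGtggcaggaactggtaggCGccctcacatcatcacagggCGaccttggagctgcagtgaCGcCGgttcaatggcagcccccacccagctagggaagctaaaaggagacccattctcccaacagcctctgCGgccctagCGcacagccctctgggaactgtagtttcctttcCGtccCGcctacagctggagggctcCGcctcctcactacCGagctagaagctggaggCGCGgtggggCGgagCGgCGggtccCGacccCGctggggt
The Bnip2 window (chr8:79521125-79521424) held 23 CG dinucleotides and the Stradb window (chr9:67908072-67908371) 19, against a median of 7 in 33469 rat promoters of this length, and 80.5 and 74.3% of those promoters held fewer. Of the other loci with a promoter region and a RefSeq promoter, Fhod3 had windows with 33 and 37 CG dinucleotides and Btbd16 a window with 1. At Bnip2 the levels were 27.00, 35.6 and 30.4% in the control libraries, 32.1, 40.6, 47.1 and 0.945% in the HFD libraries, 21.4, 33.6, 33.5 and 1.69% in the ELS libraries and 1.31, 32.4 and 23.5% in the ELS-HFD libraries. One library each of HFD, ELS and ELS-HFD lay near 0, and the other 11 lay between 21.4 and 47.1%. At Stradb the levels were 46.5, 27.7 and 26.05% in the control libraries, 47.5, 30.2, 0.714 and 52.6% in the HFD libraries, 31.7, 0.937, 29.96 and 24.99% in the ELS libraries and 26.9, 0 and 27.5% in the ELS-HFD libraries. Again 1 library each of those 3 groups lay near 0, with the other 11 at 25.0 to 52.6%, but they were other libraries than at Bnip2. The Stradb region was listed as 17 bp wide with 10 CpGs, more than 1 strand of that width can hold.

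The widest gaps separated libraries of the same group. The annotated gene is the one with the nearest start site, so a locus can carry the name of a gene that lies far off. This holds for intergenic loci and also inside transcripts. At 65 of the 158 2-level regions annotated to a transcript, that transcript was not the one with the nearest start. Whether both belonged to the same gene was not checked, and exon and intron numbers here refer to the annotated transcript. Near Mroh9, a member of a family of HEAT-repeat proteins, the intergenic locus chr13:81053255-81053358 had 46.6, 45.9 and 98.7% in the control libraries, 47.8, 42.3, 50.8 and 6.13% in the HFD libraries and 4.62, 97.3 and 44.99% in the ELS-HFD libraries. The gap was 50.7 points wide in ELS-HFD against control and 46.5 points over these 10 libraries. Above it lay 1 control and 1 ELS-HFD library, near full methylation, while 1 HFD and 1 ELS-HFD library lay near 0. At Angpt2, which encodes a ligand of the vascular receptor TIE2, intron 1 (chr16:75968629-75968845) had 97.6, 78.6 and 37.8% in the control libraries, 54.2, 95.5, 42.4 and 82.5% in the HFD libraries, 38.8, 31.8, 91.5 and 34.4% in the ELS libraries and 7.64, 89.1 and 36.98% in the ELS-HFD libraries. Every group had libraries on both sides there. At Pag1, an adaptor protein that brings the kinase CSK to the membrane, exon 5 (chr2:94272774-94272806) had 4.69, 52.6 and 97.7% in the control libraries, 57.5, 4.63, 8.85 and 6.54% in the HFD libraries, 5.92, 36.9, 4.01 and 4.86% in the ELS libraries and 1.58, 5.79 and 0.747% in the ELS-HFD libraries. In 10 of the 14 libraries the level was under 10%, and the others were spread from 36.9 to 97.7%.

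**Figure D1:**
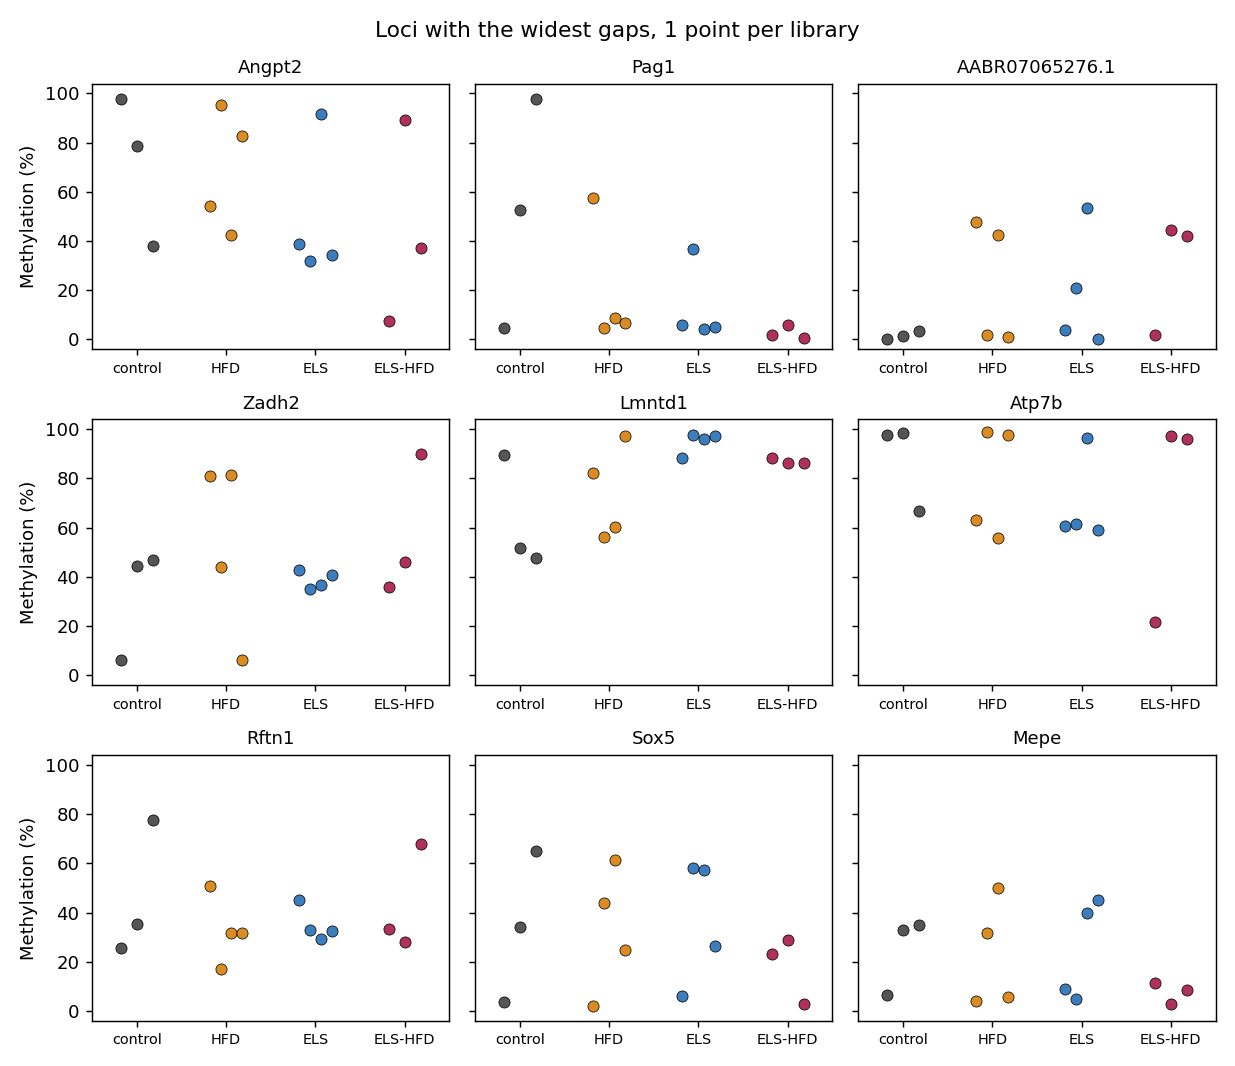
Methylation in percent (vertical axis) of each of the 14 libraries (1 point per library, by group on the horizontal axis) at the 9 loci with the widest gaps among those with values of all 14. Each panel holds a group whose libraries lie far apart, as at Angpt2, where the ELS libraries read from 31.8 to 91.5%, and Lmntd1 has all 4 ELS and all 3 ELS-HFD libraries above 80%.

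Atp7b, which encodes a copper-transporting ATPase, had a similar split in exon 1 (chr16:74887525-74887685) to Angpt2 on the same chromosome, with 97.8, 98.6 and 66.7% in the control libraries, 63.3, 98.7, 55.8 and 97.9% in the HFD libraries, 60.7, 61.5, 96.5 and 59.1% in the ELS libraries and 21.7, 97.3 and 95.9% in the ELS-HFD libraries. Of the 14 libraries, 13 lay on the same side at Atp7b as at Angpt2. At the intergenic locus named for Zadh2, a prostaglandin reductase gene 78620 bp away (chr18:81018355-81018636), the levels were 6.07, 44.2 and 46.8% in the control libraries, 80.9, 43.96, 81.3 and 6.11% in the HFD libraries, 42.96, 34.9, 36.5 and 40.8% in the ELS libraries and 36.1, 45.9 and 90.04% in the ELS-HFD libraries. All 4 ELS libraries stood close together there, at 34.9 to 43.0%, while the HFD libraries ran from 6.11 to 81.3%. At AABR07065276.1, an unnamed transcript, intron 2 (chr6:118727467-118727510) had 0, 1.25 and 3.46% in the control libraries, 47.6, 1.71, 42.6 and 0.769% in the HFD libraries, 3.68, 20.9, 53.5 and 0% in the ELS libraries and 1.59, 44.7 and 41.9% in the ELS-HFD libraries. All 3 control libraries lay under 4% and the other groups were mixed. At AABR07050646.1 (chr5:172027791-172027890) the levels were 2.698, 48.1 and 97.9% in the control libraries, 57.5, 0.455, 97.8 and 3.000% in the HFD libraries and 51.6, 51.9, 41.2 and 48.3% in the ELS libraries. The ELS libraries were together and the control and HFD libraries were not.

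Further wide gaps lay near genes of several functions. Near Rftn1, a lipid raft protein, and near Sox5, a transcription factor, the levels of the 14 libraries ran from 17.0 to 77.6% and from 2.20 to 65.02%. At Mepe, a bone matrix glycoprotein, they ran from 2.79 to 49.96%, with all 3 ELS-HFD libraries at 2.79 to 11.5%. At Kctd2, a BTB-domain protein, all 3 ELS-HFD libraries lay at 45.2 to 55.7%, where the other 3 groups ran from 14.01 to 48.8%. The locus named for Unc119b, a chaperone of lipid-modified ciliary proteins, lay in an exon of another transcript. It had 11 libraries at or under 10.2% and 1 library each of HFD, ELS and ELS-HFD at 29.6, 26.2 and 38.2%. Nkd2, an inhibitor of WNT signalling, ran from 14.1 to 80.7% over 10 libraries. The locus named for Polb, a DNA repair polymerase, lay in an intron of another transcript and ran from 13.7 to 78.2%. Hcn2, a pacemaker channel, ran from 37.4 to 84.6%, and Pear1, a platelet receptor, from 22.7 to 86.0%. The locus AABR07044049.1 ran from 21.4 to 91.1%, and that named for 7SK, a small nuclear RNA, from 13.04 to 85.8%, with 1 HFD library at the top.

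Within the tables, with all libraries kept, the gap divided few regions by group. Of the 277 regions, 4 had all libraries of 1 group above and all of the other below. That count was 13 to 15 when 1 control library was left out (15 without library 2), 19 to 24 when 1 ELS-HFD library was left out (24 without library 1) and 8 without HFD library 1. It was 4 to 6 without any other HFD library or any ELS library. Control and ELS-HFD held 3 libraries each, so leaving out 1 left only the 2 that the rule asks for on a side. A group with 1 library across the gap then lies whole on its side once that library is left out. The higher counts are therefore a description, and their reason was not tested. In 115 (41.5%) 1 group lay on 1 side and the other group on both, and in 158 (57.04%) both groups lay on both sides. In HFD against control 42 of 1583 listed regions had 2 levels (2.65%), and 0 divided by group. In HFD against ELS-HFD 61 of 1653 had 2 levels (3.69%), and 0 divided by group. In ELS against ELS-HFD 44 of 1603 had 2 levels (2.74%), again 0. The 4 came from ELS against control (2 of 61 regions, 3.30% of 1849 listed) and from ELS-HFD against control (2 of 69 regions, 3.70% of 1867 listed).

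**Figure D2:**
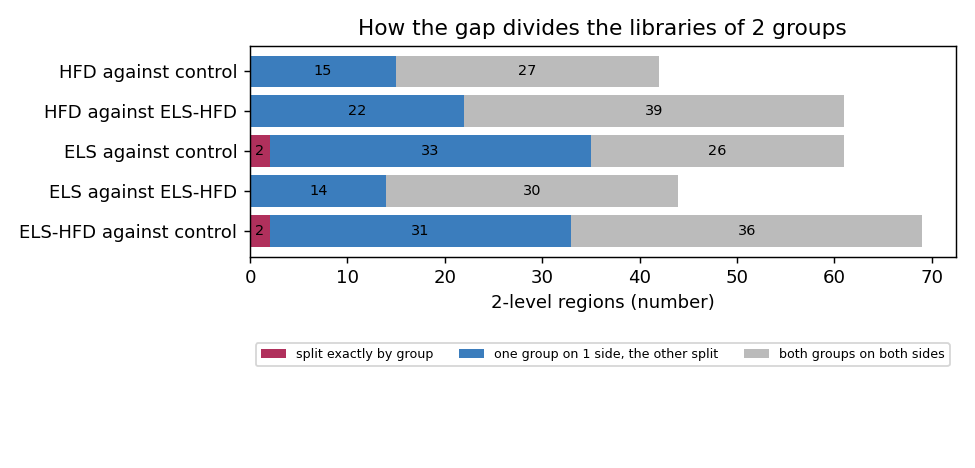
Number of 2-level regions (horizontal axis) in each of the 5 comparisons (rows), divided by where the libraries of the 2 groups lay around the gap. Regions with both groups on both sides were 27, 39, 26, 30 and 36 from top to bottom, and regions divided exactly by group were 0, 0, 2, 0 and 2.

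The overlap of the groups' ranges at these regions follows in part from their choice, since a gap that leaves libraries of 1 group on both sides spreads that group. The values of the 2 groups did not overlap at 1 of 42 regions in HFD against control, where 22.6% of all listed regions did not overlap. The count was 0 of 61 in HFD against ELS-HFD against 23.9% of listed regions, 7 of 61 in ELS against control against 25.7%, 0 of 44 in ELS against ELS-HFD against 24.1%, and 12 of 69 in ELS-HFD against control against 38.7%. In all, 20 of 277 (7.22%) had groups that did not overlap against 27.3% of listed regions. The same values chose the regions, so these counts are a description and nothing is read from the lower share. The median absolute difference of group means was 11.1 points in these regions and 3.73 points in all listed ones. When 1 library was left out, the sign of the difference changed in 76 of the 277 (27.4%) and in 646 of the other listed regions (7.80%).

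Under limma on a logit scale over each whole table, 0 of the 277 regions passed an adjusted p of 0.05, against 0.0234% of all listed regions, where 0% of listed regions passed in each of 4 comparisons and 0.107% in ELS-HFD against control. The count at an unadjusted p under 0.05 was 37 (13.4%) against 2231 of all 8555 listed regions (26.1%), and 36 on the percent scale, where 0 passed after adjustment. These p-values rest on the values that chose the regions: listing for a difference leans them towards one, and choice by a gap, with libraries of at least 1 group on both sides in all but 4 regions, widens the spread within groups and leans them away from one. Nothing is read from the lower share. The authors' deposited q-value, which takes CpGs as observations, was under 0.05 at 14 of the 277 (5.05%), against 0.678% of all listed regions. By comparison this was 1 of 42 against 0.632% in HFD against control, 1 of 61 against 0.423% in HFD against ELS-HFD, 5 of 61 against 0.919% in ELS against control, 1 of 44 against 0.686% in ELS against ELS-HFD, and 6 of 69 against 0.696% in ELS-HFD against control. The libraries that set these q-values were also those that chose the regions.

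The 4 regions divided by group had gaps of 12.2 to 16.6 points. In Tm4sf20, intron 1 (chr9:88528868-88529030) had 69.4, 68.4 and 71.2% in the control libraries and 51.8, 40.9 and 47.1% in the ELS-HFD libraries, a difference of -23.1 points (ELS-HFD minus control) between means of 46.6 ± 5.45 and 69.7 ± 1.41% (SD, n = 3 each; limma adjusted p = 0.103; q = 5.82e-08 in the authors' deposited table). Over the 4 groups the levels were 69.4, 68.6 and 71.2% in the control libraries, 66.3, 55.5, 68.5 and 52.6% in the HFD libraries, 73.1, 51.6, 56.1 and 55.1% in the ELS libraries and 51.3, 42.00 and 47.4% in the ELS-HFD libraries, so HFD and ELS libraries lay on both sides. In Cbx6, a chromobox protein of Polycomb complexes, exon 5 (chr7:121052855-121053038) had 68.5, 58.5 and 63.7% in the control libraries and 38.4, 43.5 and 20.5% in the ELS-HFD libraries, a difference of -29.5 points (ELS-HFD minus control) between means of 34.1 ± 12.1 and 63.6 ± 5.04% (SD, n = 3 each; limma adjusted p = 0.116; q = 1 in the authors' deposited table). Over the 4 groups all 3 control libraries lay at 57.3% or above and the other 11 libraries at 55.7% or below, although the tables gave levels of 1 library that differed by up to 20.8 points at this locus. In Sh3pxd2a, which encodes a scaffold of podosomes, intron 6 (chr1:267092836-267092912) had 53.3, 55.3 and 73.8% in the control libraries and 41.1, 36.9, 38.2 and 26.8% in the ELS libraries, a difference of -25.0 points (ELS minus control) between means of 35.8 ± 6.21 (SD, n = 4) and 60.8 ± 11.3% (SD, n = 3; limma adjusted p = 0.102; q = 0.0309 in the authors' deposited table). The 3 ELS-HFD libraries had 57.5, 31.8 and 80.8%, on both sides. At the intergenic locus AABR07024757.1 (chr16:14837477-14837626) the levels were 30.7, 31.5 and 28.7% in the control libraries and 54.8, 53.01, 45.3 and 53.3% in the ELS libraries, a difference of 21.3 points (ELS minus control) between means of 51.6 ± 4.27 (SD, n = 4) and 30.3 ± 1.41% (SD, n = 3; limma adjusted p = 0.0952; q = 0.119 in the authors' deposited table), while the ELS-HFD libraries had 54.8, 41.5 and 6.28%.

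Other loci with a deposited q under 0.05 mostly had 1 group on both sides of the gap. At AABR07072158.1 (chr10:70015518-70015619) the levels were 57.4, 71.2 and 24.3% in the control libraries, 7.58, 19.96, 22.9 and 11.02% in the ELS libraries and 12.8, 7.48 and 4.37% in the ELS-HFD libraries. The controls ran from 24.3 to 71.2% and the other libraries stayed under 23%. At Slc46a3, a lysosomal transporter, intron 2 (chr12:8729019-8729330) had 4.904, 32.98 and 35.96% in the control libraries, 26.8, 2.68, 3.599 and 4.38% in the HFD libraries, 7.24, 3.85, 5.82 and 5.51% in the ELS libraries and 4.51, 29.6 and 3.15% in the ELS-HFD libraries. Control libraries lay on both sides there. At Sod1, the cytosolic superoxide dismutase, exon 1 (chr11:30363366-30363411) had 26.04, 27.5 and 30.5% in the control libraries, 18.02, 1.88, 29.5 and 16.4% in the HFD libraries, 19.6, 17.3, 15.1 and 18.4% in the ELS libraries and 3.21, 17.3 and 2.47% in the ELS-HFD libraries. The 3 lowest libraries were 1 of HFD and 2 of ELS-HFD, and all 3 controls lay at 26.0% or above. The locus named for Arhgap21 lay in an exon of another transcript, 203707 bp from the named start. There, 2 of 4 ELS libraries stood at 89.99 and 91.0%, above all others at 50.5 to 74.4%, with tables that differed by up to 17.0 points for 1 library. Near Dpm3, part of the enzyme that makes dolichol-phosphate mannose, the control libraries lay at 56.7 to 72.4% and the ELS-HFD libraries at 23.4 to 50.6%. The loci AABR07044106.1, AABR07009373.2 and AABR07068625.1 had such a q as well and ran from 2.47 to 75.5%, from 13.6 to 84.6% and from 27.4 to 85.4%. With Tm4sf20, Sh3pxd2a and LOC689599 these made 11 loci.

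The 4 groups could be read together at 111 of the loci, where the tables held all 14 libraries. The values of 1 library differed between tables by a median of 3.08 points per locus, and by 12 points or more at 15 loci, so levels were averaged over tables. Here each locus was divided at its widest gap with at least 2 libraries on each side. At 0 of the 111 loci were all groups on 1 side each, at 14 loci 1 group had libraries on both sides, at 43 loci 2 groups had, at 38 loci 3 groups had, and at 16 loci (14.4%) all 4 had. The gap was still at least 12 points wide at 33 of the 111 when all 14 libraries were put in order, and 19 of these 33 had both levels in at least 3 groups. Such counts were not made at the other listed loci, so none is read as a trait of the 2-level loci. Of the 171 loci, 107 had 2 levels in 1 table, 37 in 2, 16 in 3, 7 in 4 and 4 in all 5, the last being Angpt2, AABR07065276.1, Kctd2 and Pear1. Over the 111 loci the range between the lowest and the highest library had a median of 38.7 points and exceeded 50 points at 29 loci.

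**Figure D3:**
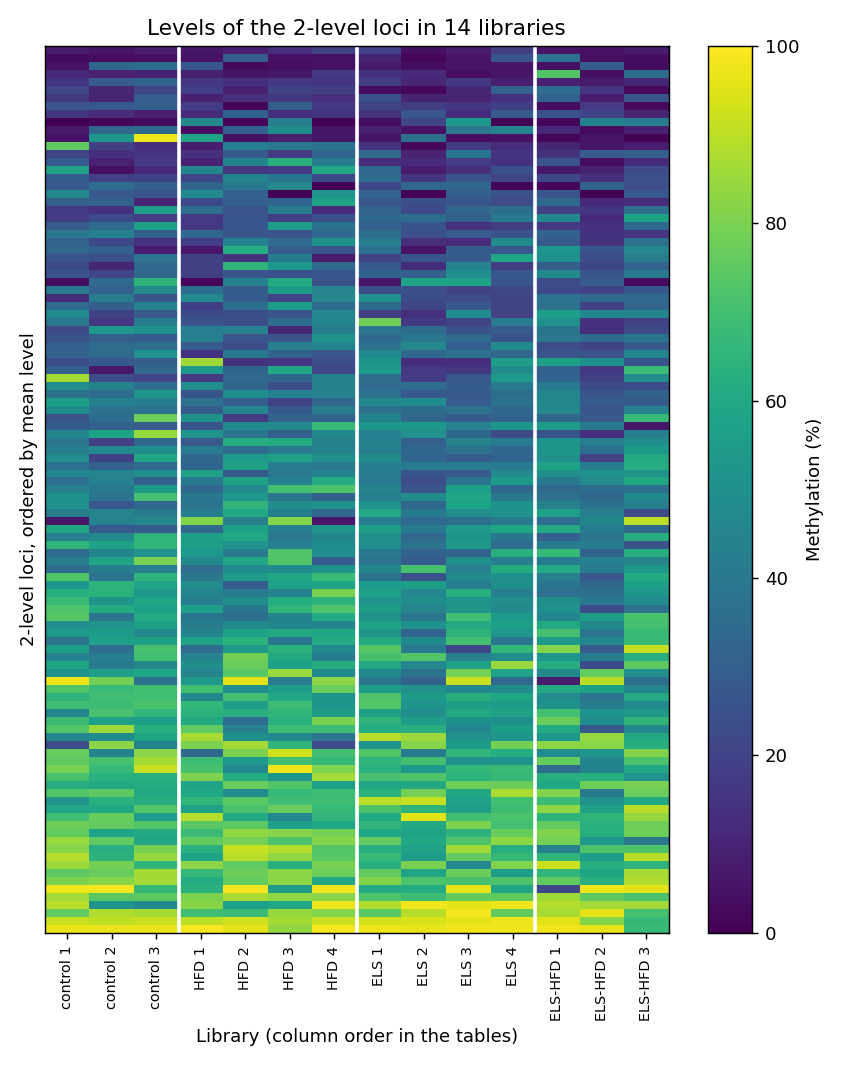
Methylation in percent (colour) of the 111 loci with values of all 14 libraries (rows, ordered by mean level) in each library (columns, by group, white lines between groups). Bright and dark cells within a row lie scattered over the 4 groups, and the range within a row runs from 16.1 to 96.9 points.

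Clean steps were few. Levels up to 20%, from 35 to 65% and from 80% upward held all 14 libraries at 4 of the 111 loci, namely Pag1, in 3 steps, and Lmntd1, Rasal1 and AABR07070265.1, in 2 steps each. At AABR07070265.1 the upper step was HFD library 4 alone, at 80.004% and so just above the edge. The other 13 libraries there were spread from 36.9 to 64.1%. At Rasal1, a RAS GTPase-activating protein, exon 14 (chr12:41429820-41429974) had 46.4, 48.6 and 58.7% in the control libraries, 87.04, 50.1, 47.7 and 39.6% in the HFD libraries, 89.3, 84.9, 51.2 and 52.2% in the ELS libraries and 52.5, 84.05 and 60.3% in the ELS-HFD libraries. There, 4 libraries of 3 groups lay above 84% and the other 10 at 39.6 to 60.3%. At Lmntd1, a protein with a lamin tail domain, intron 2 (chr4:179698909-179699205) had 89.7, 51.7 and 47.6% in the control libraries, 82.4, 56.3, 60.1 and 97.2% in the HFD libraries, 88.2, 97.9, 96.1 and 97.4% in the ELS libraries and 88.5, 86.2 and 86.1% in the ELS-HFD libraries. All ELS and ELS-HFD libraries were high, while control and HFD libraries lay on both sides (limma adjusted p = 0.0952 for ELS against control; tables differed by up to 18.9 points for 1 library). Zadh2 had 13 libraries in the 3 steps.

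The share of the variance of the 14 levels that lay between the 4 groups had a median of 22.8% at the 111 loci and ran from 3.58 to 69.4%. In the 780 other listed loci with all 14 libraries it was 38.7%, and 35.4% in the 320 of them with a mean level of 20 to 80%. It exceeded 50% at 11 of the 111 loci (9.91%) and at 227 of the 780 (29.1%). All these loci were listed for a group difference. With few libraries per group, part of the variance lies between groups even where levels do not follow them. The size of that part was not computed, so a share of 22.8% does not by itself show that levels follow the groups. The levels that chose the loci also give this share, so it carries no test.

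**Figure D4:**
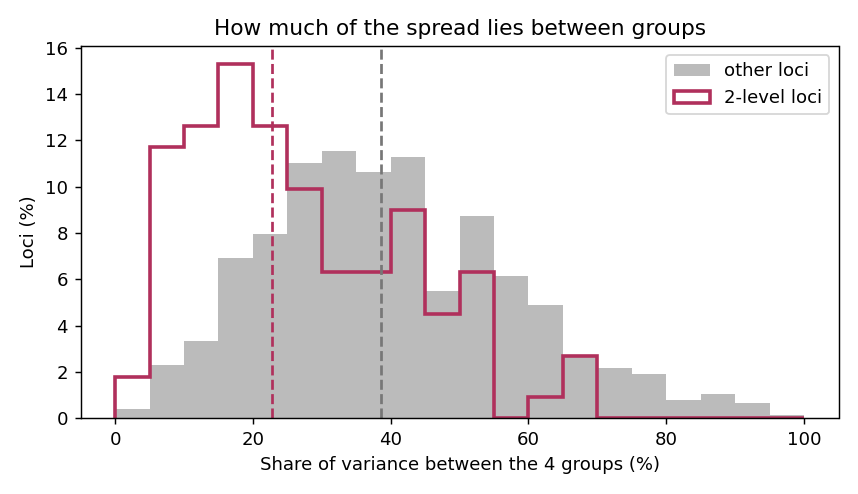
Percentage of loci (vertical axis) by the share of their variance over 14 libraries that lies between the 4 groups (horizontal axis, percent), for the 111 2-level loci (outline) and the 780 other loci (grey). Dashed lines are the medians, 22.8 and 38.7%.

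A fit of separation, diet and their interaction over the 891 loci (limma on the logit scale, with Benjamini-Hochberg adjustment) called separation at 1 of the 111 loci, against 1.57% of the 891, and diet at 0, against 2.92%. The interaction was called at 0, against 0.112%, and any difference among the 4 groups at 0, against 2.81%. At an unadjusted p under 0.05 the counts were 21 for separation (24.1% of the 891 loci), 13 for diet (17.2%), 3 for the interaction (13.2%) and 11 for any difference (21.3%), which were 18.9, 11.7, 2.70 and 9.91% of the 111. The 1 call was the locus named for LOC689599, in intron 23 of another transcript (chr9:114896957-114897434). It had 40.8, 30.6 and 47.6% in the control libraries, 36.1, 29.6, 55.02 and 44.8% in the HFD libraries, 23.9, 24.4, 19.4 and 21.1% in the ELS libraries and 22.1, 19.6 and 27.3% in the ELS-HFD libraries. All 7 separated libraries read 19.4 to 27.3% and all 7 others 29.6 to 55.02%, a difference of -17.9 points (adjusted p = 0.0384). The call was lost in 10 of the 14 fits that each left out 1 library, and on the percent scale Cbx6 was called as well. All 891 loci were listed for a group difference, which leans these p-values towards one, while the 111 were also chosen by gaps between libraries, which leans theirs the other way. The shares of the 111 and of the 891 are therefore a description.

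The direction of a difference could be set side by side in comparisons that share no library. For diet, 42 of 67 loci (62.7%) had the same direction in HFD against control and in ELS-HFD against ELS, where 155 of 294 other loci (52.7%) did. For separation, 47 of 67 loci (70.1%) had the same direction in ELS against control and in ELS-HFD against HFD, against 252 of 364 other loci (69.2%). The values of these libraries also chose the loci, and no test of these shares was made.

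Single libraries differed in how often they lay on the upper side. The share of the 111 loci was 46.8, 38.7 and 51.4% in the control libraries, 36.9, 47.7, 50.5 and 49.5% in the HFD libraries, 46.8, 28.8, 43.2 and 45.0% in the ELS libraries and 50.5, 23.4 and 50.5% in the ELS-HFD libraries. ELS library 2 and ELS-HFD library 2 were the lowest. Their mean levels over the other listed regions, 28.5 and 24.6%, were also the lowest of their groups, where the others had 30.5 to 31.6% and 26.8 to 27.2%. The other groups had the same pattern. Control library 2 and HFD library 1 had the lowest share of their groups and the lowest such mean, 28.1 and 23.6%. The others there had 28.7 and 28.8%, and 24.8 to 26.1%. The part of this in the counts was not tested.

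Libraries of 1 group were on the same side at a median of 62.2% of loci (18 pairs, 49.5 to 73.9%), and libraries of different groups at 59.5% (73 pairs, 44.1 to 79.3%). The median was 73.0% within control, 59.0% within HFD, 66.7% within ELS and 51.4% within ELS-HFD. The pair that matched most often, at 79.3%, was control library 1 and HFD library 4, of different groups, followed by control library 2 and HFD library 1 at 74.8%. Pairs share loci and libraries, so no p is given.

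**Figure D5:**
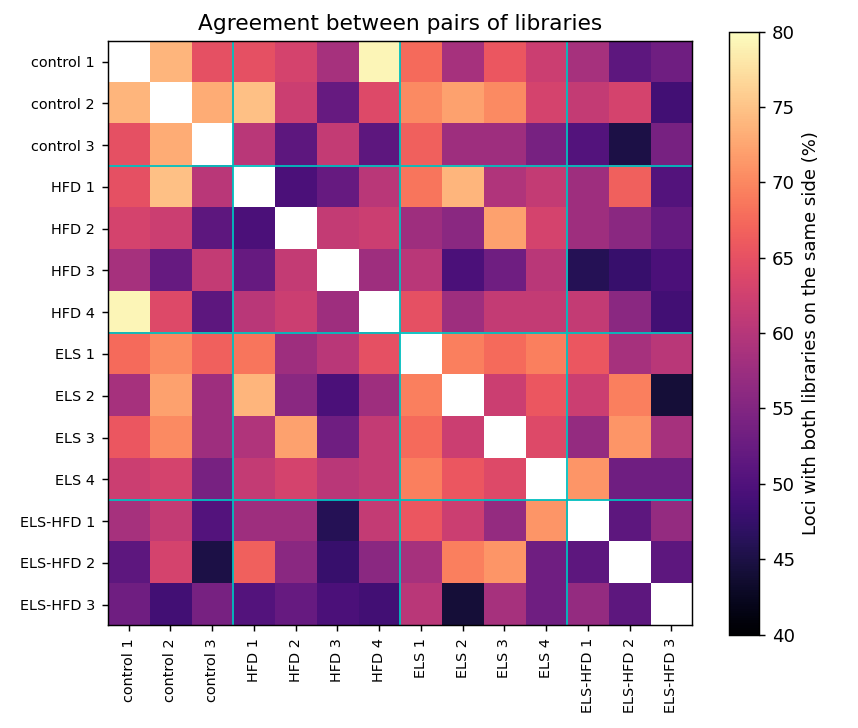
Percentage of the 111 loci at which 2 libraries lie on the same side of the gap (colour), for each pair of the 14 libraries, with lines between groups. The brightest cell joins control library 1 and HFD library 4 at 79.3%, and the 3 pairs of control libraries have a median of 73.0%.

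Neighbouring loci had medians close to those of distant ones for libraries placed alike, counting the same or the opposite side throughout. Pairs that placed at least 12 of the 14 libraries alike were a larger share among neighbours. The median was 9.5 of 14 libraries for pairs within 1 Mb, 10 for pairs 1 to 5 Mb apart, and 9 both for pairs farther apart and for pairs on different chromosomes. Of 14 pairs of loci within 1 Mb, 4 (28.6%) placed at least 12 of the 14 libraries alike, and of 38 pairs 1 to 5 Mb apart 7 did (18.4%). The share was 4.04% of 272 pairs over 5 Mb apart on the same chromosome and 5.64% of 5781 pairs on different chromosomes. Atp7b and Angpt2, 1.08 Mb apart, were alike in 13 libraries. C1qc, a complement subunit gene, and Alpl, which encodes an alkaline phosphatase, were alike in all 14, with 2 ELS-HFD libraries on the upper side at both. Pear1 and Dpm3, 1.46 Mb apart, had opposite sides in all 14, with control library 1 and HFD library 4 apart from the other 12 at both. Over all 14 libraries the dividing gap was only 3.90 points at C1qc, 6.32 at Alpl and 6.97 at Dpm3, against 21.6 at Pear1. Where 1 side holds few libraries, loci match more easily, and no test was made.

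The 2-level regions had intermediate levels. Their mean over all libraries had a median of 46.3%, against 12.8% in all listed regions, and 240 of the 277 (86.6%) had a mean of 20 to 80%, against 29.9% of all listed. None had a mean under 10%, where 3922 listed regions (45.8%) lay. Of the 2558 listed regions with a mean of 20 to 80%, 9.38% had 2 levels. The regions were 107 bp wide at the median (17 to 632 bp) and held a median of 10 CpGs.

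By the deposited annotation 12 of the 277 regions lay in promoters (4.33%), 64 in exons (23.1%), 74 in introns (26.7%), 8 at transcript ends (2.89%) and 119 between genes (43.0%). In all listed regions promoters were 14.2% and introns 19.7%, and in the other regions with a mean of 20 to 80% they were 5.74 and 18.3%. The X chromosome had 63 listed regions and 0 of them had 2 levels, as did 0 of 1 on Y and 0 of 26 on unplaced scaffolds, against 3.24% of all listed regions. Of the X regions 14 had a mean of 20 to 80%, where 9.38% of listed regions had 2 levels. These numbers are small, so nothing is read from the counts of 0.

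Gene lists gave few members. Imprinted genes had 28 listed maternal and 3 paternal regions with 0 of 2 levels. Metabolic genes had 16 listed regions at 7 genes (Fads1, Fasn, Igf1r, Insr, Irs1, Ppara and Scd), and stress and neurotrophic genes had 10 at 6, with 0 in each. Median levels were 3.26% in the maternal, 16.2% in the paternal, 10.7% in the metabolic and 2.89% in the stress and neurotrophic list. No 2-level region had a mean under 10% and these lists are small, so nothing is read from the counts of 0. Names of multi-copy families and of placeholder transcripts covered 2305 listed regions, of which 99 (4.30%) had 2 levels, at 62 loci, against 3.24% of all. Their median level was 21.9%, against 12.8% in all listed regions, so nothing is read from the higher share. Just inside the threshold of 12 points were regions at Ngfr, AABR07020815.1 and 5_8S_rRNA, with gaps of 12.02, 12.03 and 12.04 points, and just outside were 5S_rRNA, Pax2 and AABR07050543.1, with 11.998, 11.99 and 11.98 points.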

How the data were processed

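Methylation in sperm DNA was measured by reduced representation bisulfite sequencing. The labels and tables were followed, although amygdala RNA is what the series' design text describes. Per the labels' protocols, 14 libraries were made (Zymo-Seq RRBS kit) from DNA isolated by Genomic Mini AX Swab & Semen Spin columns. Trim Galore, Bismark, Bowtie and the assembly Rnor_6.0 are named in the submitters' processing notes, without versions. The 5 deposited tables give each region's methylation in percent per library, as computed by the authors. The header lines match the output of metilene, a region caller, per the file headers, which state neither its settings nor a coverage filter. The p-values and q-values are the authors' and were deposited with each region. The count of CpGs per region is also deposited by the authors, and in 18 of 8555 regions it exceeds what 1 strand of the listed width can hold. Depth is unknown. The group of a column was read from the letters of its code, which the labels leave unexplained, and from the number of columns per code (3 for control, 4 for HFD, 4 for ELS, 3 for ELS-HFD). At identical regions 2 tables held the same value in 87.2 to 96.3% of cases within a column (tolerance 1e-09 percentage points), and in at most 0.0829% between columns.

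Gaps were computed from the library values in Python 3.11.15. A logit, log2((percent + 1) / (100 - percent + 1)), was fitted with limma 3.58.1 (R 4.3.3) for each table over all its regions with Benjamini-Hochberg adjustment, and tested on simulated data first. The members and lists were chosen with earlier results of these data known. Loci are named by fixed rules: the 20 widest gaps, those divided exactly by group, the 10 widest with both groups on both sides, those with a q-value or adjusted p under 0.05, and up to 15 found in 3 or more tables. Members of the lists of multi-copy and placeholder names are given as counts. Bnip2, Stradb's promoter, Rasal1, C1qc, Alpl and AABR07070265.1 were chosen after their values were seen, as were the fit of 14 libraries, the variance share, the steps, the library pairs, the directions between tables that share no library, and the distances between loci. Alternatives were other gaps, group sizes, CpG minimums, overlaps, scales and offsets, and leaving out each library.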

Additional observations from a re-analysis of the deposited data

Results flagged for a closer look

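Among 62 groups of 4 libraries at the named loci, 11 had 1 library far from the other 3 by Dixon's criterion. In unselected groups chance exceeds it in about 1 of 20, but these loci were chosen for gaps between libraries, so that rate does not apply and nothing is read from the number. No cause was tested. In the ELS group 1 library stood high at Angpt2 (91.5%), Pag1 (36.9%), Atp7b (96.5%) and Kctd2 (48.8%), and 1 stood low at AABR07024757.1 (44.2%). In the HFD group 1 library stood high at Pag1 (57.5%), Kctd2 (46.4%), Unc119b (29.6%), Slc46a3 (26.8%) and 7SK (85.8%), and 1 stood low at AABR07044106.1 (7.64%). ELS library 3 was the one apart at Angpt2, Atp7b, Kctd2 and AABR07024757.1, and HFD library 1 at Pag1, Slc46a3, 7SK and AABR07044106.1. Angpt2 and Atp7b lie 1.08 Mb apart and placed 13 libraries alike.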

How the results depend on the processing

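With a gap of 10 points there were 271 loci and 440 regions, of which 7 were divided by group and 1 was called by limma. With a gap of 15 points there were 95 loci and 161 regions, 1 divided by group and 9 with a deposited q under 0.05. With 20 points there were 37 loci and 67 regions, 0 divided by group and 7 with such a q. With at least 3 libraries on each side there were 78 loci and 112 regions, 4 with such a q. With at least 20 CpGs there were 9 loci and 14 regions, 0 divided by group and 5 with such a q. At an adjusted p under 0.1, limma called 2 regions, and on the percent scale the fit of 14 libraries called separation at 2 loci. Leaving out 1 library gave 164 to 194 loci, 265 to 300 regions, 0 to 1 regions called by limma (1 without control library 1 or ELS-HFD library 3) and 12 to 16 with a q under 0.05. The regions divided by group numbered 4 to 24. They were 14, 15 and 13 without control library 1, 2 or 3, 8 without HFD library 1 and 24, 22 and 19 without ELS-HFD library 1, 2 or 3. Without any other library they were 4 to 6. In the groups of 3 only 2 libraries are then left, so the higher counts are a description. The call for separation was lost without control library 1 or 3, HFD library 3 or 4, any of the 4 ELS libraries, or ELS-HFD library 1 or 3. Calls for diet numbered 0 to 1 (1 without ELS-HFD library 1) and those for any difference 0 to 2 (1 without control library 1, HFD library 2 or ELS-HFD library 1, and 2 without ELS-HFD library 2). The variance share stayed between 18.3 and 29.9%. No paired analysis was possible because the table columns carry no replicate numbers. Depth limits cannot be given, as the tables hold no read counts.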
